A study of Homo sapiens with 16 samples.

Results

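The RNA of MDA-LM2 cells was set against the RNA of their parental line over 10772 transcripts, to ask which pathways and gene families stood higher or lower in the lung-metastatic derivative. The parental line, MDA-MB-231, is a human triple-negative breast cancer line, which lacks oestrogen and progesterone receptors and ERBB2 amplification, and the labels call it poorly metastatic. MDA-LM2 is a derivative of it with high metastatic capacity in the labels, which earlier work had selected for growth in the lung. Both lines were kept as cultures in high-glucose medium with fetal serum, antibiotics and an antifungal, and the labels name no drug, transgene, knockdown or other edit for either. RNA was purified from the lysates that also gave the ribosome footprints, and a total RNA kit for low input was used for the libraries. The 4 RNA libraries used here, 2 per line, are among 16 samples of the study, and its methods describe such libraries as biological duplicates. The labels do not say that replicates came from separate cultures, so the p-values measure the spread between these samples, which may be technical in part. MDA-LM2 is 1 derived population, so a difference here lies between these lines, and metastatic capacity cannot be told apart from any other property in which they differ. Transcripts were chosen by level alone: 10772 of the 10799 listed had a mean of at least 10 over the 4 RNA libraries.

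Breast cancer cells that colonise the lung have to leave the primary site, survive in the circulation, cross the vessel wall and grow in a foreign tissue. Matrix proteins and the proteases that cut them, cell adhesion molecules, growth factors and cytokines act at those steps, and several genes of these classes were first tied to lung metastasis in derivatives of this same parental line. Messenger RNA gives the supply of template for translation, and its level reflects transcription, processing and decay together.

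Each value is the number of reads the authors counted on a transcript after scaling by a size factor per library, so it is a level that grows with transcript length, and it is compared here only between libraries of the same transcript. The 4 libraries held 7517953, 8193031, 8161631 and 7920501 reads. Here 1 read was the step between low values in a library, estimated from the median gap between neighbouring ones. The lowest value listed in any library was 5 or 6 such reads, so genes silent in either line are not in the table and a fold change cannot start from 0. Parental replicates correlated with r = 0.994 on the log2 scale and MDA-LM2 replicates with r = 0.984. The SD of the difference between replicates was 0.211 in the parental pair and 0.333 in the MDA-LM2 pair. A symbol was matched to 97.9% of the transcripts, and the others kept their identifier and stayed in the test. In such bulk RNA, fewer cells with a transcript and less of it per cell cannot be told apart.

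Of the 10772 transcripts, 1813 differed between the lines, which is 16.8% (limma on log2 of the value plus 1, Benjamini-Hochberg adjusted p under 0.05). Higher in MDA-LM2 cells were 725 transcripts (6.73% of those tested), and lower were 1088 (10.1%). A change of at least 1 on the log2 scale was reached by 204 of the transcripts that rose and 255 of those that fell. All 1813 calls had replicates that did not overlap between the lines, as did 61.8% of all transcripts tested. The median change over all transcripts was -0.02 on the log2 scale and the median SE 0.15. Scaling the libraries to equal totals moved every change up by 0.17 and gave 1397 higher and 671 lower, so the split between rises and falls depended on the scaling. The counts also depended on which library was left out. In such a fit the lone library was assumed to vary like the pair of the other line. The SD between replicates was 0.211 in the parental and 0.333 in the MDA-LM2 pair. Without parental replicate 1 there were 320 higher and 403 lower, and without parental replicate 2 there were 359 and 485. Without MDA-LM2 replicate 1 there were 2041 higher and 2999 lower, and without MDA-LM2 replicate 2 there were 1456 and 1917. No call changed sign in those fits. Of the 51 gene lists with a call, 48 and 47 had fewer calls without parental replicate 1 and 2, while 46 and 48 had more without MDA-LM2 replicate 1 and 2. In what follows, values after ± are standard errors, and a change is a log2 difference, MDA-LM2 minus parental. Counts of calls in a list stand beside the 6.73% called higher and 10.1% called lower over all transcripts.

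Markers of the parental line were high in both lines. Of 10 markers of basal and mesenchymal breast cancer lines, 8 were listed, and their summed value was between 70139 and 87581 in the 4 libraries, mostly from VIM and AXL. VIM, the intermediate filament of mesenchymal cells, had 34813 and 36719 in parental and 44869.5 and 31464 in MDA-LM2 cells, a change of 0.07 ± 0.21 that did not pass the test (adjusted p = 0.84). MSN, which links actin to the membrane, was called higher, while CAV1 and CAV2, the coat proteins of caveolae, were called lower, with log2 changes of 0.53, -0.62 and -1.66. Of 14 luminal markers 6 were listed, with a summed value of 2734 and 2797 in the parental and 1837 and 1908 in the MDA-LM2 libraries. The only 1 of them called was SPDEF, at -4.04, while ESR1, PGR and FOXA1 were not listed. None of 12 blood cell markers was listed, and 3 of 12 markers of endothelium and fibroblasts were: COL1A1, ACTA2 and PDGFRB. Their summed value was 78.9 to 79.7 in the parental libraries and 621 to 909.7 in the MDA-LM2 libraries. In the MDA-LM2 libraries nearly all of it was COL1A1 (579.7 and 879), while COL1A1 had 9.97 and 20.99 in the parental ones. The fibroblast genes COL3A1, DCN and LUM and the endothelial genes PECAM1, VWF and CDH5 were not listed. Genes silent in either line are not in the table, so absence does not show that a marker was silent in both.

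The largest rise belonged to COL1A1, the main chain of type I collagen, at chr17:50184101-50201631 on the minus strand (hg38, transcript span). Its values were 9.97 and 20.99 in parental and 579.7 and 879 in MDA-LM2 cells, a log2 change of 5.52 ± 0.32 and an adjusted p of 3.77e-05. Both MDA-LM2 libraries were thus far above both parental ones, with a ratio of means of 47.1. IGFBP2, a secreted protein that binds insulin-like growth factors, rose from 9.97 and 6.995 to 180.4 and 205 (log2 4.37 ± 0.24, adjusted p = 2.90e-05). IGSF3, a membrane protein of the immunoglobulin superfamily, rose from 6.64 and 8.99 to 207 and 212 (log2 4.59 ± 0.23, adjusted p = 1.61e-05). PAPPA2, a protease that cleaves IGF-binding proteins, rose from 5.54 and 13.99 to 194 and 251 (log2 4.49 ± 0.37, adjusted p = 0.00021). These 3 transcripts had parental values between 5.54 and 13.99, near the low end of the table, and MDA-LM2 values between 180.4 and 251. C3, the central component of complement, rose from 5.54 and 12.99 to 129.7 and 129 (log2 3.77 ± 0.35, adjusted p = 0.000353). PHGDH, the first enzyme of serine synthesis from a glycolytic intermediate, lay at chr1:119711934-119744215 and rose from 59.8 and 57.96 to 608 and 693, a log2 change of 3.44 ± 0.14 and a ratio of 11.1 (adjusted p = 8.96e-06). LCP1, an actin-bundling protein best known from blood cells, rose from 13.3 and 14.99 to 142 and 161 (log2 3.33 ± 0.21, adjusted p = 5.50e-05). The other members of the 12 largest rises were TENM1, a teneurin, at 4.04, the kinase DCLK1 at 3.64, the transcription factors POU2F2 at 3.51 and TFAP2C at 3.103, and the receptor-type phosphatase PTPRN2 at 3.17, all on the log2 scale.

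The largest fall belonged to CLDN4, a claudin of epithelial tight junctions, at chr7:73830996-73832690 on the plus strand. Its values were 1185 and 1117 in parental and 51.7 and 43.4 in MDA-LM2 cells, a log2 change of -4.57 ± 0.14, or 24.2 times lower by the ratio of means (adjusted p = 3.08e-06). CDH11, a cadherin of mesenchymal cells, fell almost as far, from 861 and 804 to 41.3 and 43.4 (log2 -4.26 ± 0.14, adjusted p = 3.08e-06). An epithelial and a mesenchymal adhesion gene therefore headed the falls together. SPDEF, an ETS factor of luminal and secretory epithelium, fell from 732 and 669.5 to 47.9 and 36.4 (log2 -4.04 ± 0.17, adjusted p = 8.96e-06). EHF, an ETS factor of epithelia, fell from 275 and 264 to 30.1 and 27.5 (log2 -3.18 ± 0.16, adjusted p = 1.84e-05). SCNN1A, the alpha subunit of the epithelial sodium channel, fell from 146 and 162 to 10.3 and 9.75 (log2 -3.81 ± 0.22, adjusted p = 3.21e-05). TNS4, a tensin at focal adhesions, fell from 787 and 877 to 47.9 and 61.2 (log2 -3.92 ± 0.16, adjusted p = 8.96e-06). The remaining members of the 12 largest falls were the matrix remodelling protein MXRA8 at -4.19, the factor ATOH8 at -3.68, the zinc transporter TMEM163 at -3.57, the vesicle fusion protein VAMP8 at -3.26, the retinal reductase DHRS3 at -3.20 and the elongation factor EEF1A2 at -2.97. In the plot of these 24 transcripts by library, no library of one line reached the values of the other. The rule that chose them required this separation.

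**Figure D1:**
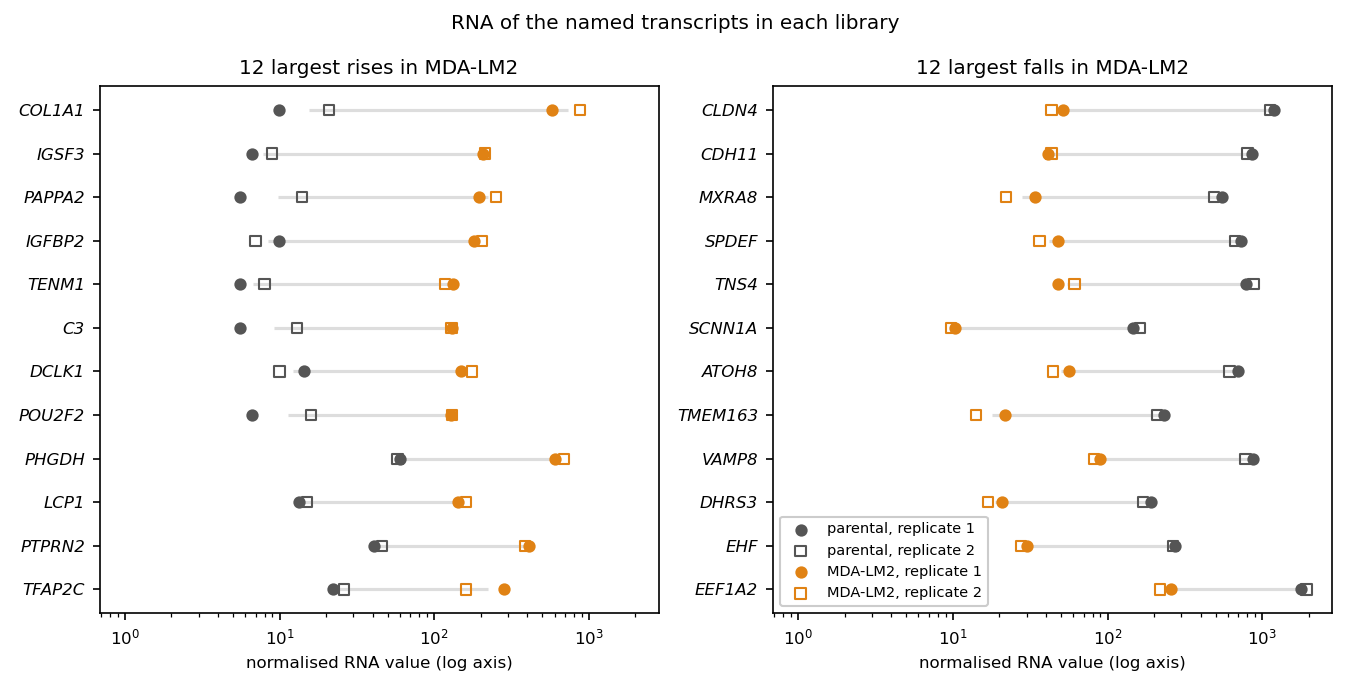
Normalised RNA value (log axis) of the 12 largest rises and the 12 largest falls in each of the 4 libraries. Grey marks are parental and orange marks MDA-LM2 libraries, and lines join the group means. COL1A1 went from 9.97 and 20.99 to 579.7 and 879, and CLDN4 from 1185 and 1117 to 51.7 and 43.4.

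Promoter sequence of the leading genes was read from the RefSeq table on GRCh38.p14, which holds 250 bases before and 50 after each gene start and matched 6168 of the tested transcripts. Sites are shown for 3 of the leading genes as 30 bases 5′ to 3′ on the gene's strand with the motif in capitals, because CLDN4, PHGDH and LCP1 hold matches to motifs of factors known in epithelial, stress and mesenchymal programmes. CLDN4 had 2 matches to TGANTCA, the AP-1 motif, at positions -242 and -161 from the gene start. PHGDH and LCP1, which rose, and TMEM163, which fell, each had a match to CAGGTG, the E-box that ZEB and SNAI factors can bind, on either strand. The letters of the TATA box, TATAAA, matched in LCP1 at positions -247 and -97. On the opposite strand they matched in PHGDH at position -213, and the TEAD motif matched there in SPDEF at position 34. The lines show the AP-1 and E-box matches of CLDN4, PHGDH and LCP1 and the LCP1 TATA match nearer to the gene start:
CLDN4, AP-1, chr7:73830746-73830775, plus strand: ctgggctgTGATTCAgtgtctgtctcccgg
CLDN4, AP-1, chr7:73830824-73830853, plus strand: agactggatagTGACTCAgggacccggggc
PHGDH, E-box, chr1:119711722-119711751, plus strand: ttatatgctcacCAGGTGtaggtaagagct
LCP1, TATA box, chr13:46182257-46182286, minus strand: ttaaaatgtcctTATAAAgacaaaatcttt
LCP1, E-box, chr13:46182307-46182336, minus strand: gacctgttctgtCAGGTGatttttggtggg
A match says only that the letters are present. The AP-1 motif, searched on both strands, was in 22 of 366 promoters of transcripts that rose (6.01%), 17 of 566 that fell, 3.94% of 6168 tested and 8.05% of all 22114 promoters. The TATA box was in 8.20% of promoters of transcripts that rose, 4.42% of those that fell, 5.09% of those tested and 12.7% of all. The ZEB and SNAI E-box was in 19.1% and 20.8% of the same groups, beside 16.7% of those tested. The motif of NF-Y (CCAAT) was in 36.9% and 38.9%, that of TEAD (GGAATG) in 10.1% and 10.4%, and the E-box of MYC (CACGTG) in 7.38% and 9.89%, beside 39.4%, 10.3% and 10.99% of those tested. The interferon-stimulated response element, searched as GAAA, any 2 bases and GAAA, was in 2.19% and 1.77%, beside 2.79%. The NF-kB type motif, searched as GGG, any 5 bases and CC, was in 76.0% and 80.7%, beside 75.2%.

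Matrix genes held some of the largest changes. Of 5 fibrillar and beaded collagens tested, 4 rose and none fell, with a median of 1.58, beside 6.73% of all transcripts called higher. Type VI collagen, which forms beaded filaments around cells, rose in all 3 chains listed. COL6A1 had 945 and 998 in parental and 3148 and 3016 in MDA-LM2 cells, a change of 1.66 ± 0.11 (adjusted p = 7.24e-05). COL6A3 had 154 and 117 in parental and 370.2 and 439.8 in MDA-LM2 cells and changed by 1.58 ± 0.17 (adjusted p = 0.000716), and COL6A2 changed by 1.45. COL5A1, of type V collagen, had 577 and 607 in parental and 427 and 536 in MDA-LM2 cells and was not called (log2 -0.31). Of 9 network, transmembrane and associated collagens, 4 rose and 2 fell. The short-chain collagen COL8A1 rose by 1.15 ± 0.13 and the basement membrane chain COL4A1 by 0.76 ± 0.15, whereas COL18A1, the source of endostatin, changed by -0.84 ± 0.12 and COL9A2 by -1.80 ± 0.19. Without either parental library, 4 fibrillar and beaded rises and 2 network rises were called.

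Of 21 enzymes that modify and cross-link collagen, 6 rose and 2 fell, and their median was -0.11. P3H4, a component of collagen hydroxylation complexes, went from 139.5 and 145 to 561 and 475 (log2 1.85 ± 0.14, adjusted p = 0.000119). The prolyl hydroxylase P4HA1 and the lysyl hydroxylase PLOD2 rose by 0.75 and 0.74, while PLOD3 changed by -0.81 and the glycosyltransferase COLGALT2 by -2.10. Without parental replicate 1 a single rise was called, and without parental replicate 2 there were 3. Of 24 matrix glycoproteins, 7 rose and 4 fell. FBLN1, a fibulin of elastic fibres, had 18.8 and 14.99 in parental and 178 and 128 in MDA-LM2 cells (log2 3.09 ± 0.24, adjusted p = 0.000152). LAMA4, a laminin chain of vessel basement membranes, rose by 1.95 ± 0.14 and TGFBI, a matrix protein induced by TGF-beta, by 1.61 ± 0.11. THBS1, a matricellular inhibitor of angiogenesis, had 12684 and 12713 in parental and 6334 and 6788 in MDA-LM2 cells and fell by 0.95 on the log2 scale (SE 0.13, adjusted p = 0.00232). Among 12 proteoglycan genes, 3 rose and 2 fell. SRGN, the core protein of serglycin, rose from 171 and 193 to 1413 and 1346 (log2 2.92 ± 0.12, adjusted p = 8.96e-06), and HSPG2, the basement membrane proteoglycan perlecan, fell from 3066 and 3391 to 916 and 1013 (log2 -1.74 ± 0.12, adjusted p = 8.31e-05). The glycoprotein calls were 8 and 7, and the proteoglycan calls 3 and 4, without parental replicate 1 and 2.

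Proteases moved in both directions. MMP1, an interstitial collagenase, had 35.4 and 34.98 in parental and 227 and 239 in MDA-LM2 cells, a change of 2.69 ± 0.16 (adjusted p = 4.05e-05). It was the only metalloproteinase of the MMP family that rose, since MMP14, MMP16 and MMP19 were not called, and of the inhibitors TIMP1 rose by 0.80 while TIMP3 changed by -0.65. This list had 1 and 2 calls without parental replicate 1 and 2. Of 11 genes of the plasminogen system and serpins, 5 rose and 1 fell. PLAU, the urokinase activator, had 2728 and 2635 in parental and 4441 and 5056 in MDA-LM2 cells (log2 0.82 ± 0.12, adjusted p = 0.00361), and SERPINE2 and SERPINB8, both protease inhibitors, rose by 0.81 and 0.74. PLAT, the tissue-type activator, fell from 1489.6 and 1427 to 857 and 794 (log2 -0.82 ± 0.11), so the pair of plasminogen activators went opposite ways. Without parental replicate 2 the rises were 2. Of 20 cathepsins and ADAM-type proteases, 4 rose and 6 fell. ADAMTS6, ADAMTS12 and ADAM19 rose by 3.07, 1.37 and 0.51. CTSD, a lysosomal aspartic protease, had 20584 and 20376 in parental and 7017 and 6136 in MDA-LM2 cells and fell by 1.64 (adjusted p = 0.000254), and ADAM15 and the aggrecanase-type ADAMTS15 changed by -1.35 and -1.48. Without either parental library 2 rises and 3 falls were called.

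Epithelial genes held many falls and few rises. Of 13 keratins and cornified envelope genes, 9 fell and 1 rose, with a median of -1.08, beside 10.1% of all transcripts called lower. KRT19 and KRT7, keratins of simple epithelia, led the falls. KRT19 had 6595 and 6421 in parental and 1284 and 1109 in MDA-LM2 cells (log2 -2.45 ± 0.12, adjusted p = 1.61e-05). KRT7 had 10314 and 9689 in parental and 3118 and 1996 in MDA-LM2 cells (log2 -2.002 ± 0.20, adjusted p = 0.000473). KRT8 changed by -1.04, KRT81 by -1.39, KRT83 by -1.27, KRT86 by -1.16 and KRT80 by -1.08. KRT18, the partner of KRT8, had 2642 and 2989.9 in parental and 2851 and 3079 in MDA-LM2 cells and was not called (log2 0.08). KRT81, KRT83 and KRT86 are hair keratins of near-identical sequence, so reads could be shared among them and their values are uncertain. KRT15, a basal keratin, was called higher at 0.83, but not under quantile normalisation, not by limma voom and not without parental replicate 2 or MDA-LM2 replicate 1. The falls in keratins were 9 under each scaling tried and without each parental library. Of 9 epithelial transcription and splicing factors and inhibitors, 5 fell and none rose (6 and 1 at an unadjusted p under 0.05 from limma, 5 and 0 by limma voom). Next to EHF these were ELF3 at -2.34, also an ETS factor, RBM47, a splicing regulator, at -1.92, and the protease inhibitors SPINT1 at -1.43 and SPINT2 at -0.61. CDH1, GRHL2 and OVOL1, at the core of the epithelial programme, were not listed, so a change in them could not be seen. EPCAM had 46.5 and 39.97 in parental and 31.9 and 31.9 in MDA-LM2 cells and was not called.

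Junction genes were split. Of 17 tight junction genes, 3 fell and 1 rose: CLDN4, CLDN7 (log2 -1.54) and the polarity gene PARD6A (-0.82) fell, and CLDN11, a claudin of myelin and testis, went from 13.3 and 10.99 to 72.3 and 36.4 (log2 1.999 ± 0.35). Of 16 genes of adherens junctions and desmosomes, 3 rose and 4 fell. The rises were the desmosomal linker DSP, from 399 and 387 to 709 and 976 (log2 1.08 ± 0.16), and the desmosomal cadherins DSC2 at 0.99 and DSG2 at 0.59. The falls were the plakoglobin gene JUP at -1.06, PKP2 at -0.68, PKP3 at -0.62 and NECTIN2 at -0.53. Desmosomal components therefore changed in both directions. Without parental replicate 1, 2 rose and 1 fell, and without parental replicate 2, 1 rose and 2 fell.

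Mesenchymal genes did not move as a block. Of 20 tested, 5 rose and 3 fell, and the median was 0.02. TPM1, a tropomyosin, rose by 1.03 ± 0.13, SNAI2, a repressor of epithelial genes, by 0.92 ± 0.18 and TAGLN, an actin-binding protein of smooth muscle, by 0.76 ± 0.21. The falls were CDH11, PDGFRB at -1.02 and S100A4, a calcium-binding protein of motile cells, which had 1105 and 1170.2 in parental and 434 and 461 in MDA-LM2 cells (log2 -1.34 ± 0.11, adjusted p = 0.000254). PDGFRB had low values and was not called under equal totals. Without either parental library 2 rises and 2 falls were called.

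Genes tied by earlier work to lung metastasis of derivatives of this parental line formed a list of 20, of which 15 were tested. Of these, 8 rose and 3 fell, with a median of 0.61, the highest median after that of the fibrillar and beaded collagens. The list is no independent support, since it was compiled from lines like MDA-LM2. Beside MMP1, the rises held TNC, the matrix protein tenascin-C, which had 320.1 and 369.7 in parental and 756 and 920.4 in MDA-LM2 cells (log2 1.28 ± 0.14, adjusted p = 0.000849). EREG, an EGF receptor ligand, had 173 and 186 in parental and 459 and 347 in MDA-LM2 cells (log2 1.15 ± 0.16, adjusted p = 0.00263). PTGS2, the cyclooxygenase COX2, had 16.6 and 12.99 in parental and 54.5 and 46.99 in MDA-LM2 cells, a change of 1.72. CXCL1, a neutrophil chemokine, had 11.1 and 18.99 in parental and 36.6 and 38.1 in MDA-LM2 cells, a change of 1.30. Both had low parental values, and their replicates did not overlap between the lines, as held for all 1813 calls. KYNU of tryptophan breakdown changed by 0.98, the actin bundler FSCN1 by 0.73 and the guidance receptor ROBO1 by 0.61. The falls were led by inhibitors of differentiation. ID3 had 746 and 853 in parental and 158 and 95.8 in MDA-LM2 cells (log2 -2.69 ± 0.22, adjusted p = 0.000198), and ID1 had 3219 and 3201 in parental and 1242 and 889 in MDA-LM2 cells (log2 -1.61 ± 0.16, adjusted p = 0.000498). ANGPTL4, a lipase inhibitor that loosens vessels, had 186 and 188 in parental and 264 and 234 in MDA-LM2 cells and was not called (log2 0.41). VCAM1, SPARC and IL13RA2 of the same list were not in the table, so a change in them could not be seen. Without parental replicate 1 the counts were 5 and 3, and without parental replicate 2 they were 6 and 2.

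Growth factor genes changed in number but not in 1 direction. Of 11 genes of the EGF family and its receptors, 4 rose and 4 fell. Ligands were split, since EREG and EGF rose while AREG, amphiregulin, went from 277 and 315 to 86.4 and 58.5 (log2 -2.04 ± 0.20), and NRG1 and TGFA changed by -0.86 and -0.63. The feedback inhibitors of the receptor were split as well: LRIG1 went from 44.3 and 51.96 to 308 and 263 (log2 2.55 ± 0.17, adjusted p = 6.96e-05), and ERRFI1 from 2386 and 2616 to 1262 and 1065 (log2 -1.11 ± 0.13). EGFR itself had 4727 and 4844 in parental and 4143 and 4750.0 in MDA-LM2 cells and was not called. Of 29 targets and feedback genes of RAS and ERK, 6 fell and 1 rose. The falls were those of the feedback inhibitors SPRY2 at -0.97, SPRY1 at -0.93 and SPRED3 at -0.61, the phosphatases DUSP6 at -0.90 and DUSP4 at -0.59, and PHLDA1 at -0.78. The rise was that of DUSP5, also a phosphatase, at 0.68. Of the same inhibitor families SPRY4, SPRED1, SPRED2 and DUSP7 were not called, and the inhibitors as a group were not tested. Without parental replicate 1 none rose and 3 fell, and without parental replicate 2 none rose and 2 fell. In the EGF list, 5 calls were made without either parental library.

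Of 33 genes of TGF-beta and BMP signalling, 9 fell and 4 rose. Targets of BMP signalling were among the falls, with ID1, ID3 and ID4, the last at -1.71, and the ligand BMP4 at -1.57. INHBB, an activin subunit, went from 270.2 and 252 to 81.7 and 67.4 (log2 -1.80 ± 0.16). The accessory receptor TGFBR3, the secreted FSTL1 and the BMP antagonist NOG rose by 0.94, 0.90 and 0.72. In this list 2 rose and 6 fell without parental replicate 1. Of 28 WNT and NOTCH genes, 9 fell and 1 rose, with a median of -0.27. The receptor FZD8 rose from 155 and 149 to 523 and 466 (log2 1.69 ± 0.13), and the NOTCH ligand JAG2, the receptor ROR1 and the NOTCH target HES4 changed by -1.75, -1.70 and -1.26. Under equal totals this list had 4 rises and 7 falls. Here 4 falls were called without parental replicate 1. Of 27 YAP and TEAD targets, 3 rose and 4 fell: NUAK2, TEAD4 and CCN2 at 1.29, 0.73 and 0.59, and ANKRD1, a classic target, from 4037 and 3865 to 1555 and 1709 (log2 -1.28 ± 0.12), with TEAD2 at -1.09, ARHGEF17 at -0.44 and MYOF at -0.55. Under equal totals it had 7 rises and 2 falls, and without parental replicate 1 and 2 it had 4 and 3 calls.

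Angiogenic factors split evenly, with 8 rises and 8 falls of 27. PGF, the placental growth factor, had 71.99 and 73.9 in parental and 225 and 174 in MDA-LM2 cells (log2 1.42 ± 0.17, adjusted p = 0.00135). PDGFA and VEGFA, ligands for receptors on pericytes and endothelium, rose by 0.89 and 0.73. Of the IGF-binding proteins, IGFBP1, IGFBP2 and IGFBP3 rose, and IGFBP6 and IGFBP7 fell, by 0.76 and 1.03. GAS6, the ligand of AXL, had 4121 and 3756 in parental and 1673 and 1131 in MDA-LM2 cells (log2 -1.52 ± 0.18, adjusted p = 0.00119), and the receptor MET had 1680.1 and 1726 in parental and 647 and 731 in MDA-LM2 cells (log2 -1.31 ± 0.12, adjusted p = 0.000312). AXL had 28358 and 27177 in parental and 25688 and 21962 in MDA-LM2 cells and was not called. Without parental replicate 2 the angiogenic list had 5 rises and 5 falls. Of 26 semaphorin, plexin, SLIT and netrin genes, 5 rose and 9 fell. SLIT2, a ligand of ROBO receptors, went from 176 and 204 to 556 and 583 (log2 1.58 ± 0.13) and ROBO4 and SEMA4B rose by 0.83 and 0.93. The plexins PLXNA4, PLXNB3, PLXND1 and PLXNA3, receptors for semaphorins, fell by 2.34, 1.63, 1.28 and 0.56, and the netrin NTN4 by 1.29. Of the 14 called members, 6 lay in stretches of neighbouring genes that moved the same way, which are described after the lists. Without either parental library, 9 calls were made.

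Of 13 integrin subunits, 4 rose and 1 fell. ITGB3 and ITGAV together form the vitronectin receptor. ITGB3 had 44.3 and 49.96 in parental and 158 and 135 in MDA-LM2 cells (log2 1.61 ± 0.18, adjusted p = 0.000842), and ITGAV had 288 and 299 in parental and 473 and 545 in MDA-LM2 cells (log2 0.79 ± 0.13, adjusted p = 0.00517). The collagen-binding ITGA1 rose by 0.83, and the leukocyte subunit ITGB2 changed by -0.52. There were 2 rises and no fall without parental replicate 1. Among 18 adhesion molecules of the immunoglobulin type and protocadherins, 3 rose and 1 fell: CADM1 from 18.8 and 31.98 to 89.3 and 75.4 (log2 1.70 ± 0.28), ICAM1 and ICAM2 by 0.59 and 0.72, and PCDH7 by -0.75. Of 9 ephrins and their receptors, the ligand EFNB1 rose by 1.58 ± 0.18, and the ligand EFNA1 and the receptor EPHB4 fell by 1.31 and 0.62. The adhesion calls were 2 and 3 and the ephrin calls 1 and 3 without parental replicate 1 and 2.

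Cytokine genes were few in the table, since 10 of 35 were listed. Of these 4 rose and 1 fell. IL6 had 5.54 and 8.99 in parental and 17.9 and 45.2 in MDA-LM2 cells (log2 1.87 ± 0.47, adjusted p = 0.0312) and CXCL8, a neutrophil chemokine, had 21.04 and 25.98 in parental and 66.7 and 51.4 in MDA-LM2 cells (log2 1.29 ± 0.25, adjusted p = 0.0109). Both stayed at low levels, and the 2 MDA-LM2 values of IL6 were far apart. IL11, a cytokine of the IL6 family, had 565 and 567 in parental and 972 and 811 in MDA-LM2 cells (log2 0.65 ± 0.13). CSF1, the macrophage growth factor, fell from 1742 and 1844 to 831 and 755 (log2 -1.18 ± 0.12, adjusted p = 0.000457). Of 24 receptors of cytokines and chemokines, 3 rose and 3 fell, 12.5% each beside 6.73% and 10.1% of all transcripts. The largest change was that of CD40, a TNF receptor family member, from 186 and 171 to 25.4 and 31.03 (log2 -2.63 ± 0.19, adjusted p = 0.000107). Of 28 NF-kB subunits and feedback genes, 4 rose (14.3%) and 3 fell (10.7%), beside the same 6.73% and 10.1%. REL rose by 0.81, and IKBKG and IKBKB changed by -0.83 and -0.50. Under equal totals the NF-kB list had 10 rises and 1 fall. The NF-kB list had 2 and 3 calls, and the receptor list 3 and 2, without parental replicate 1 and 2.

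Interferon-stimulated genes fell in part. Of 57 tested, 11 fell (19.3%) and 3 rose (5.26%), beside 10.1% and 6.73% of all transcripts, while the median was -0.03. BST2, which tethers viruses to the membrane, had 686 and 688 in parental and 180.4 and 143 in MDA-LM2 cells (log2 -2.09 ± 0.14, adjusted p = 8.65e-05). OAS2, a sensor of double-stranded RNA, had 98.6 and 103 in parental and 21.6 and 15.96 in MDA-LM2 cells (log2 -2.38 ± 0.23, adjusted p = 0.000433). IFIT1, IFIT2 and IFIT3, which bind viral RNA, changed by -1.51, -1.99 and -1.37, OASL by -1.91, DHX58 by -1.29, DDX60 by -1.15 and GBP2 by -0.86. IFI27 had 77.5 and 94.9 in parental and 6.58 and 10.6 in MDA-LM2 cells (log2 -3.21 ± 0.30), a mean under the 50 that was set for the largest changes. The rises were PARP14, TRIM21 and DTX3L, at 0.75, 0.64 and 0.55. The falls were 9 under equal totals and 9 and 8 without parental replicate 1 and 2, where the rises were 0 and 1. Of 29 antigen presentation genes 1 was called, HLA-DRA, with 36.5 and 38.97 in parental and 76.1 and 70.9 in MDA-LM2 cells (log2 0.94 ± 0.20). Its class I genes were not called, and reads of HLA genes can be shared between paralogues.

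Genes of lipid synthesis held falls and almost no rises. Of 32 genes of cholesterol synthesis and uptake, 13 fell and none rose, with a median of -0.37 beside -0.02 for all transcripts. At an unadjusted p under 0.05 from limma, 19 were lower and 0 higher, and limma voom called 13 lower and 0 higher. INSIG1, which retains the sterol sensor in the endoplasmic reticulum, had 1567 and 1481 in parental and 627 and 435 in MDA-LM2 cells (log2 -1.54 ± 0.17, adjusted p = 0.000801). SREBF1, the transcription factor of lipogenic genes, had 1718 and 1759 in parental and 595 and 634 in MDA-LM2 cells (log2 -1.50 ± 0.11, adjusted p = 0.000119). The synthetic enzymes DHCR7, LSS, MVK and FDFT1 changed by -1.03, -0.93, -0.82 and -0.56. Of 29 genes of fatty acid synthesis and storage, 15 fell and 1 rose, with a median of -0.49. SCD, the stearoyl-CoA desaturase, had 4959 and 5357 in parental and 1494 and 1339.8 in MDA-LM2 cells (log2 -1.86 ± 0.12, adjusted p = 6.38e-05), and FASN, the fatty acid synthase, had 10135 and 10539 in parental and 3854 and 4034 in MDA-LM2 cells (log2 -1.39 ± 0.12, adjusted p = 0.00029). FADS2 and FADS1, desaturases of polyunsaturated fatty acids, changed by -1.17 and -0.94, and ACACA and ACLY, which make malonyl-CoA and acetyl-CoA, by -0.76 and -0.62. FADS3 rose by 0.86 ± 0.13. The falls also took in CPT1A, CPT1C and CPT2, of the shuttle that brings fatty acids into mitochondria for oxidation, at -0.58, -1.13 and -0.85. The falls were 10 to 17 for cholesterol and 12 to 16 for fatty acid genes under the other scalings and with GC and length trends removed, and without parental replicate 1 and 2 they were 9 and 8, and 11 and 9.

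Of 22 genes of glycolysis, 10 fell and 1 rose, with a median of -0.47. SLC2A1, the glucose transporter GLUT1, had 7338 and 6778 in parental and 3210.5 and 2606 in MDA-LM2 cells (log2 -1.29 ± 0.14, adjusted p = 0.000771). The glycolytic enzymes TPI1 and PGK1 changed by -0.66 and -0.67, SLC16A3, which exports lactate, by -0.76, and ENO2 and PFKFB2 by -0.81 and -1.16. TIGAR, a phosphatase that slows glycolysis, rose by 0.55. Most of these changes were small, and without either parental library 3 falls were called. Hypoxia-inducible genes, which include glycolytic ones, were split, with 6 rises and 6 falls of 37. CA9, a carbonic anhydrase, had 11.1 and 7.99 in parental and 77.04 and 62.1 in MDA-LM2 cells (log2 2.75 ± 0.28), the hormone STC1 had 235 and 232 in parental and 828 and 718 in MDA-LM2 cells (log2 1.72 ± 0.13, adjusted p = 0.000116), and the vasodilator peptide ADM had 103 and 84.9 in parental and 315 and 274 in MDA-LM2 cells (log2 1.64 ± 0.16, adjusted p = 0.000434). VEGFA and the collagen hydroxylases P4HA1 and PLOD2 completed the rises. BNIP3, NDRG1 and BHLHE40 changed by -0.65, -0.51 and -0.87, and the other 3 falls were the glycolytic genes SLC2A1, HK2 and PFKFB4. Here 4 rose and 2 fell without parental replicate 1.

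Of 36 genes of the amino acid response, serine synthesis and 1-carbon metabolism, 9 rose and 3 fell. PHGDH had the largest change, and PSAT1, the next enzyme of serine synthesis, rose by 0.54 ± 0.12, while PSPH, the last, changed by -0.44 ± 0.13. NUPR1, a stress-induced chromatin protein, went from 26.6 and 38.97 to 245 and 227 (log2 2.84 ± 0.21, adjusted p = 0.000119). ASNS, the asparagine synthetase, CEBPB, a factor of the same response, and the transporter subunits SLC7A1 and SLC3A2 rose by 0.70, 0.84, 0.54 and 0.49. DDIT3, the stress factor CHOP, changed by -0.55. Under equal totals 15 rose and none fell, and without either parental library 3 rose and none fell. Of 48 NRF2 and glutathione genes, 4 rose (8.33%) and 8 fell (16.7%), beside 6.73% and 10.1% of all transcripts. The aldo-keto reductases AKR1C1 and AKR1C3 rose by 2.34 and 1.70, and near-identical copies make their values uncertain. PGD, which makes NADPH in the pentose phosphate pathway, changed by -1.01, the exporter ABCC3 by -1.93 and the haem oxygenase HMOX1 by -1.15. The NRF2 list had 6 and 7 calls without parental replicate 1 and 2.

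Most lists of general cell machinery had a smaller share of called genes than the 16.8% of all transcripts, but the lysosomal and vacuolar ATPase list had 22.7%. None of 40 hnRNP and SR splicing proteins was called by limma or limma voom, with a median of 0.00. At an unadjusted p under 0.05 from limma, 2 were higher and 2 lower. Equal totals gave 4 rises, TMM factors 1 rise and 1 fall, and removal of GC and length trends 1 rise and 2 falls. Without MDA-LM2 replicate 1 the same list had 14 rises and 6 falls, and without MDA-LM2 replicate 2 it had 5 and 7. HNRNPC, which the study also depleted in MDA-MB-231 cells and which is named here for that reason after its values were seen, had 2768 and 2664 in parental and 2197 and 1930.3 in MDA-LM2 cells and a change of -0.40 ± 0.12 (adjusted p = 0.0551). PCBP2, which binds cytosine-rich RNA, had 3934 and 3982 in parental and 3262 and 5491 in MDA-LM2 cells, so its MDA-LM2 values lay on both sides of the parental ones. Of 73 cytosolic ribosomal proteins, 5 fell and none rose, but their median was -0.25, and it was -0.08 with equal totals or with GC and length trends removed. Of 54 DNA replication genes 1 rose and 3 fell, and of 74 mitotic genes 2 rose and 4 fell. The balance of both lists turned with the scaling, since equal totals gave 8 rises and 0 falls for DNA replication and 8 and 2 for mitosis, and TMM factors gave 6 and 2 for DNA replication and 3 and 4 for mitosis. MYBL2, a cell cycle transcription factor, had 1419 and 1608 in parental and 687 and 642 in MDA-LM2 cells (log2 -1.18 ± 0.12, adjusted p = 0.000537). Of 41 proteasome genes 1 rose and 4 fell, of 44 endoplasmic reticulum chaperones and stress genes 2 rose and 2 fell, and of 51 ribosome biogenesis genes 5 rose and 2 fell. Of 30 nucleotide synthesis genes 1 rose, the purine enzyme ATIC at 0.56. Respiratory genes held 4 falls of 37 in complex I and 5 of 37 in complexes II to V, with no rise by limma or limma voom (9 and 12 lower, 1 and 0 higher at an unadjusted p under 0.05). Lysosomal and vacuolar ATPase genes held 9 falls and 1 rise of 44, beside 10.1% of all transcripts called lower. The DNA replication, proteasome, endoplasmic reticulum, ribosome biogenesis, respiratory and lysosomal lists held 0 to 4 calls each without parental replicate 1 or 2, but 18 to 27 when MDA-LM2 replicate 1 was left out and 9 to 17 for replicate 2. With equal totals, the ribosomal proteins had 1 fall and 1 rise, complex I no fall and complexes II to V 2 falls. The ribosomal proteins had no call without either parental library, and 55 and 28 falls without MDA-LM2 replicate 1 and 2. The mitotic list had 1 call without either parental library, and 41 and 17 without MDA-LM2 replicate 1 and 2.

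Of 31 cell cycle inhibitors and stress response genes, 7 fell and 2 rose. The CDK inhibitors CDKN1A, CDKN1B, CDKN2C and CDKN2D changed by -0.73, -0.59, -0.87 and -0.87, and AEN, a nuclease of apoptosis, rose by 1.35 ± 0.13. The list had 4 and 5 calls without parental replicate 1 and 2. Of 67 actin regulators and small GTPases, 6 rose (8.96%) and 8 fell (11.9%), near the 6.73% and 10.1% of all transcripts. EVL, an actin polymerase cofactor, rose from 62.02 and 69.95 to 142 and 140.1 (log2 1.09 ± 0.16), PFN2, a profilin, by 0.98 and FSCN1 as above. LIMK1, a kinase of cofilin, fell from 2568 and 2543 to 1199.8 and 1042 (log2 -1.19 ± 0.12), and MYLK and PDLIM4 changed by -0.94 and -0.97. Of 16 S100 proteins and annexins 1 rose and 3 fell, with S100A6 falling from 30574 and 28599.8 to 17558 and 16496 (log2 -0.80 ± 0.15). The actin list had 8 and 6 calls without parental replicate 1 and 2.

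**Figure D2:**
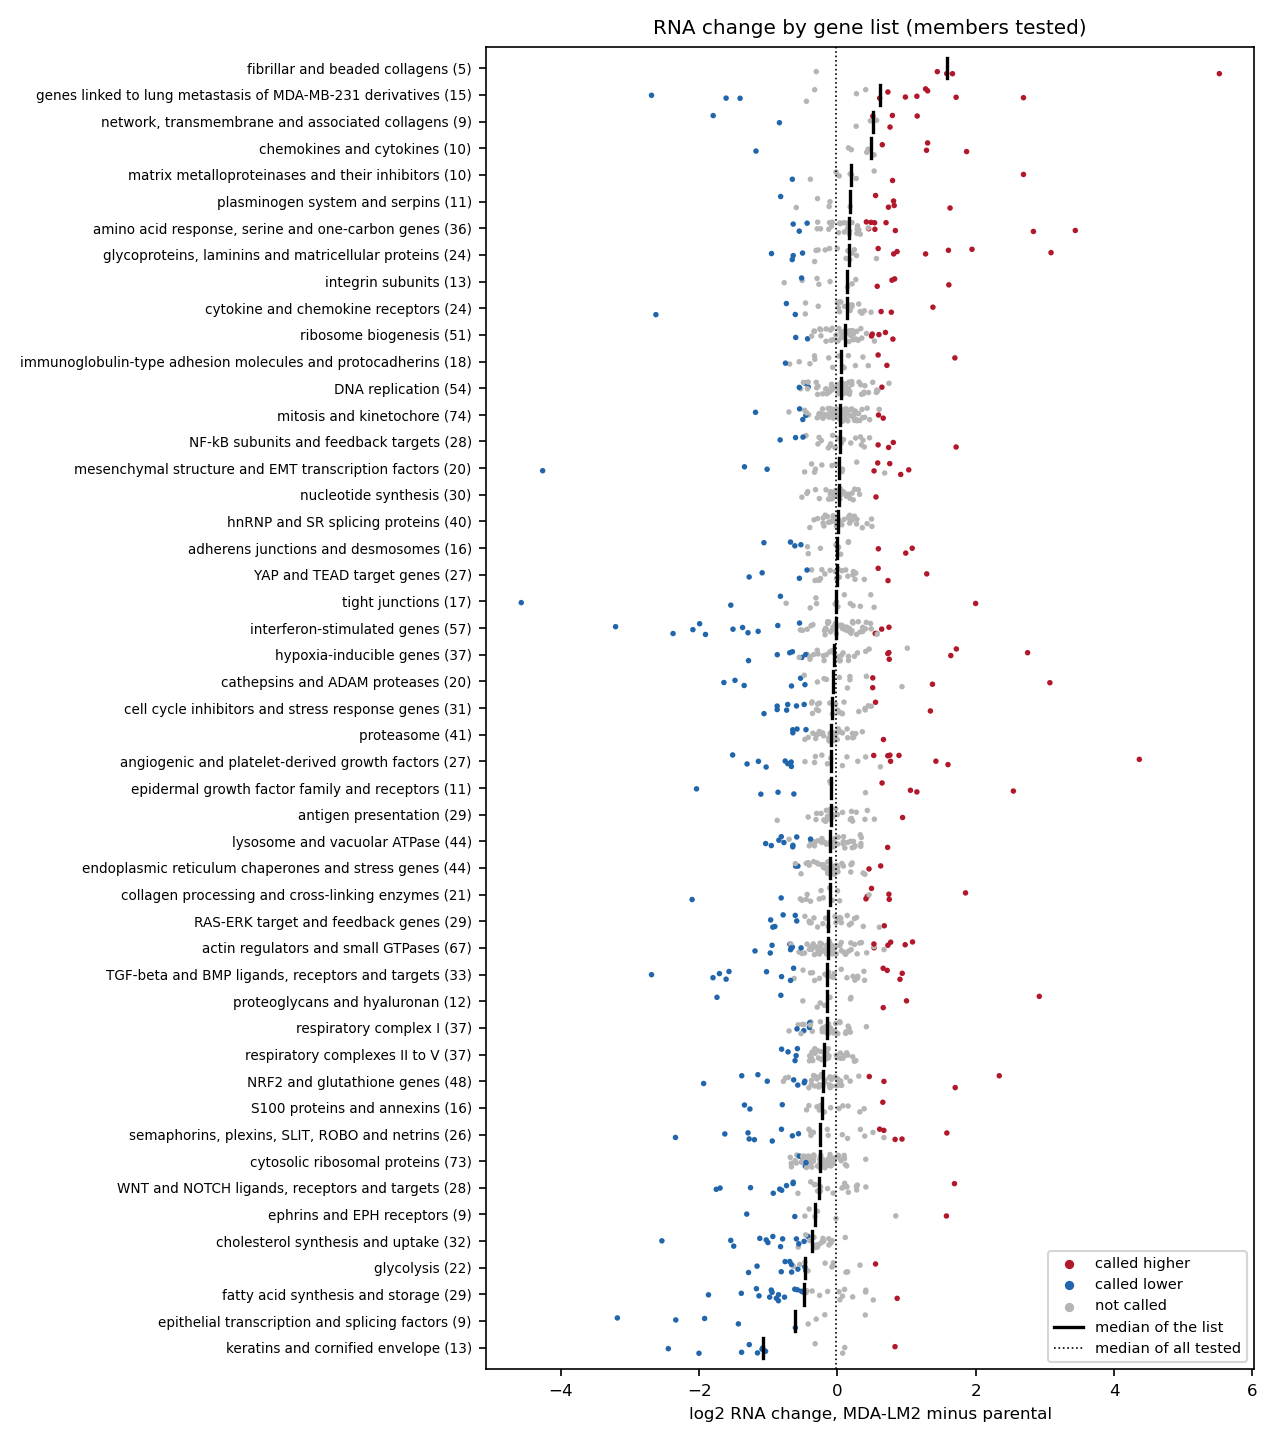
Log2 RNA change (MDA-LM2 minus parental) of each tested member of the gene lists with at least 5 tested members, sorted by median. The lists of cell type markers are not drawn. Red points were called higher and blue points lower, black bars are list medians and the dotted line is the median of all transcripts tested. Fibrillar and beaded collagens had the highest median, 1.58, and keratins and cornified envelope genes the lowest, -1.08.

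Families were also searched by symbol, 59 in all, and 47 of them had at least 10 tested members. By the share of members called, keratins came first with 75.0%, then collagen chains with 71.4%. ADAM and ADAMTS proteases, receptor tyrosine phosphatases, and semaphorins and plexins each had as many members called as not, and of 20 aldo-keto reductases and aldehyde dehydrogenases 9 were called, all beside 16.8% of all transcripts. These families were picked for their large shares, so an excess over 16.8% was fixed by the choice. Of the 10 receptor tyrosine phosphatases, 4 rose and 1 fell. PTPRN2 had 40.98 and 45.97 in parental and 412 and 386 in MDA-LM2 cells (log2 3.17 ± 0.15, adjusted p = 1.47e-05), the vessel phosphatase PTPRB rose by 1.35 ± 0.19 and PTPRJ changed by -0.89 ± 0.11. ADAMTS17 rose by 1.88 ± 0.16 and ALDH1A3, which makes retinoic acid, by 1.30 ± 0.18, and both lie near the end of chromosome 15.

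Calls were spread unevenly over the chromosomes. Between 1.47% and 28.1% of the tested transcripts of an autosome were called higher, and between 1.83% and 32.9% lower. Chromosome 15 had 92 transcripts called higher and 6 lower of 327, and chromosome 7 had 18 higher and 162 lower of 493. On chromosome X, 60 were higher and 44 lower of 354. The calls of chromosomes 7, 15 and X were not scattered. In runs of 25 neighbouring tested transcripts, the 5th and 95th percentiles of the run medians were -0.40 and 0.27 on the log2 scale. The run with the highest median, 0.97, lay at chr15:90717346-101724473 and had 23 of 25 transcripts called higher, among them the proprotein convertase FURIN at 1.66, CHSY1 of chondroitin synthesis at 1.42 and ADAMTS17. A neighbouring run at chr15:84669544-90229670 had 18 of 25 called higher. The lowest run median, -0.69, lay at chr7:43758680-50792684, with 17 called lower and 2 higher, the latter being IGFBP1 and IGFBP3.

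Neighbouring transcripts were joined into stretches wherever the centred median of 25 neighbours stayed past 0.3 in size. The limit was chosen after the values were seen. Transcripts near a chromosome end had no centred median, so the stretches stop short of the ends. ADAMTS17, ALDH1A3 and CHSY1 of the highest run were therefore counted as outside. The joining gave 3 stretches of at least 25 transcripts that stood higher and 11 that stood lower. On chromosome 15, the stretch at chr15:72199029-99135593 held 114 tested transcripts, of which 102 had a positive change and 67 were called higher. On chromosome X, 52 of 99 at chrX:43656299-72572843 were called higher, among them MSN, EFNB1 and TFE3, and on chromosome 10, 30 of 84 at chr10:49454470-78056813 were, among them SRGN and PLAU. On chromosome 7, stretches at chr7:39566404-80919051 and chr7:93885396-138589996 had 54 of 101 and 66 of 166 called lower, including CLDN4, LIMK1, MET, CAV1 and CAV2. On chromosome 1, 41 of 125 at chr1:37492575-54887195 and 24 of 52 at chr1:1324802-8817465 were called lower. Of the 709 placed rises, 149 lay in the higher stretches, and of the 1065 placed falls 278 lay in the lower ones. The stretches were chosen by these same changes, so that an excess of calls in them was fixed by the choice and these counts are a description. Ribosome-protected fragments (RPF) of the same lysates moved the same way, with median log2 differences of 0.58 and 0.51 in the chromosome 15 and X stretches and -0.41 and -0.40 in the chromosome 7 stretches. With GC and length trends removed, the RNA medians of the chromosome 15, X and 7 stretches were 0.66, 0.61, -0.49 and -0.46, while the 3 lower stretches on chromosome 19 went from medians between -0.36 and -0.40 to between -0.14 and -0.16.

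**Figure D3:**
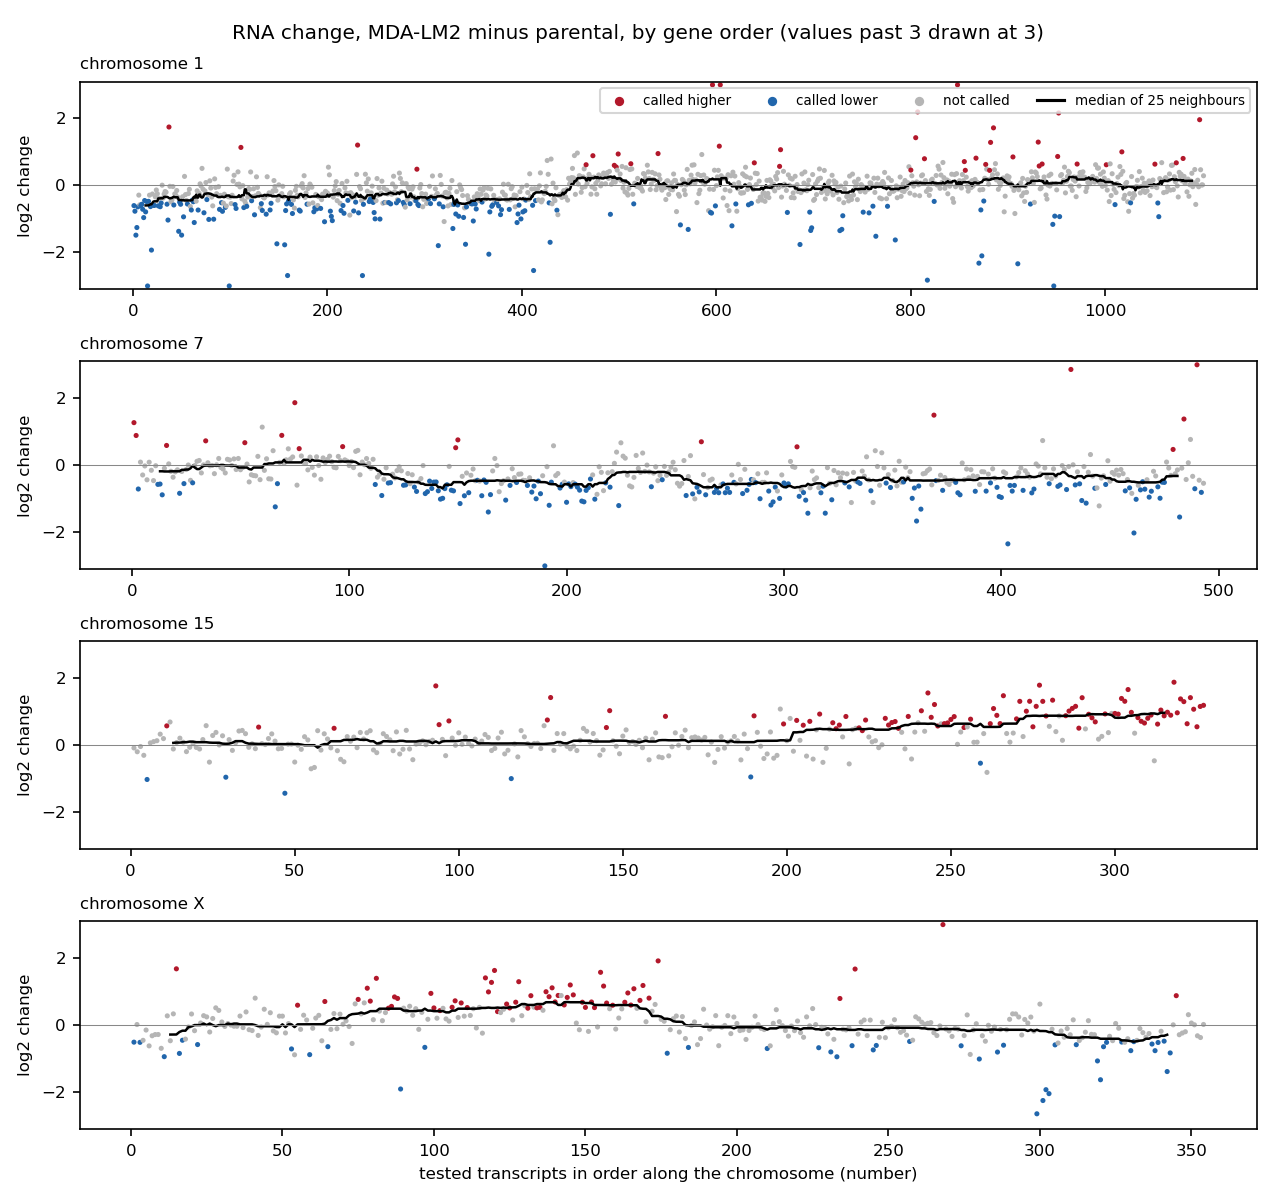
Log2 RNA change (MDA-LM2 minus parental) of the tested transcripts of chromosomes 1, 7, 15 and X in their order along the chromosome, with the median of 25 neighbours as a black line. Red points were called higher and blue points lower, and values past 3 are drawn at 3. The later part of chromosome 15 and the middle of X stood higher, and most of chromosome 7 and the first part of chromosome 1 stood lower.

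The lists differed in how many of their calls lay in such stretches. In the mitotic list 5 of 6 calls did, with PRC1 and KIF4A on chromosomes 15 and X among the rises and CDC20, KIF2C and CDCA8 on chromosome 1 among the falls, and the sixth call, MYBL2, lay outside. In the proteasome list it was 3 of 5, among the ribosomal proteins 3 of 5 and among cell cycle inhibitors and stress response genes 4 of 9. In contrast, none of the 10 calls of keratins and cornified envelope genes, of the 4 of fibrillar and beaded collagens, of the 11 of genes tied to lung metastasis or of the 14 interferon-stimulated genes lay in a stretch of their direction. The keratin cluster on chromosome 12 was itself a shorter one, with 8 of 14 neighbours called lower. For cholesterol synthesis it was 2 of 13 and for fatty acid synthesis 4 of 16.

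Transcript composition also moved with the change. Across 10548 transcripts with an annotation, the change fell with GC content (Spearman correlation -0.33, a description across transcripts that share libraries) and rose with length (0.24). In the quintile richest in GC, above 58.2%, the median change was -0.24, and 21.9% were called lower and 4.50% higher. In the quintile poorest in GC, below 40.7%, the median was 0.11, with 2.46% called lower and 5.78% higher. The MDA-LM2 replicates differed from each other by the same features, with a correlation of -0.42 between GC content and the difference of replicate 2 from replicate 1. That difference had a median of -0.22 in the quintile richest in GC and 0.13 in the poorest, a spread of the size seen between the lines, and the parental pair differed by -0.06 and 0.04. The part of GC content in the differences between the lines was not tested. After smooth trends on GC content and length were removed from each library, an alternative added after the values were seen, 937 transcripts were called higher and 1145 lower. Of the 1813 calls, 1533 were kept in the same direction and 4 had the other sign.

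**Figure D4:**
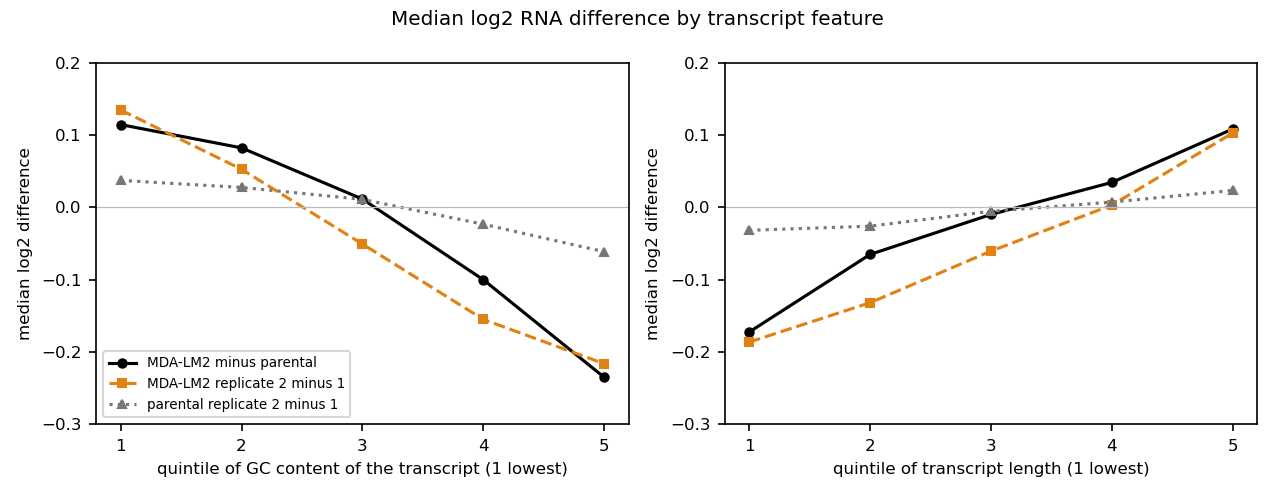
Median log2 difference by quintile of GC content and of transcript length. Black circles show MDA-LM2 minus parental, orange squares the difference between the MDA-LM2 replicates and grey triangles that between the parental replicates. From the poorest to the richest quintile in GC the median between the lines went from 0.11 to -0.24 and that between the MDA-LM2 replicates from 0.13 to -0.22.

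The RPF values, which count the transcript pieces covered by ribosomes, gave a second readout that the RNA test did not use. Of the 725 transcripts that rose, 532 had a mean RPF of at least 10, and in 514 of these the RPF difference was positive, with a median of 0.65 beside 0.67 for RNA. Of the 1088 that fell, 863 had a mean RPF of at least 10, and in 823 the difference was negative, with medians of -0.53 for RPF and -0.66 for RNA. Among 6998 transcripts not called in RNA the split was 3549 to 3449. The RPF of COL1A1 went from 4.95 and 2.14 to 198 and 185, that of CLDN4 from 105 and 89.7 to 6.82 and 6.001 and that of PHGDH from 15.2 and 11.9 to 152 and 122.5. A mean RPF under 10 was found for 418 of the 1813 calls. Some abundant RNA entries had almost no footprints: PLCG2, a phospholipase of blood cells, had the highest RNA value, with 485440 and 439064 in parental and 357976 and 243386 in MDA-LM2 cells, and a mean RPF of 6.84. Its entry took 5.83% and 5.36% of the parental totals and 4.67% and 3.47% of the MDA-LM2 totals. Of the 20 transcripts with the highest RNA mean, 5 had fewer than 1 RPF per 100 RNA, which were PLCG2, ULBP3, RC3H1, ZNF354B and ELAPOR1. What those reads are was not tested, and without PLCG2 the shift by equal totals was 0.15 in place of 0.17.

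**Figure D5:**
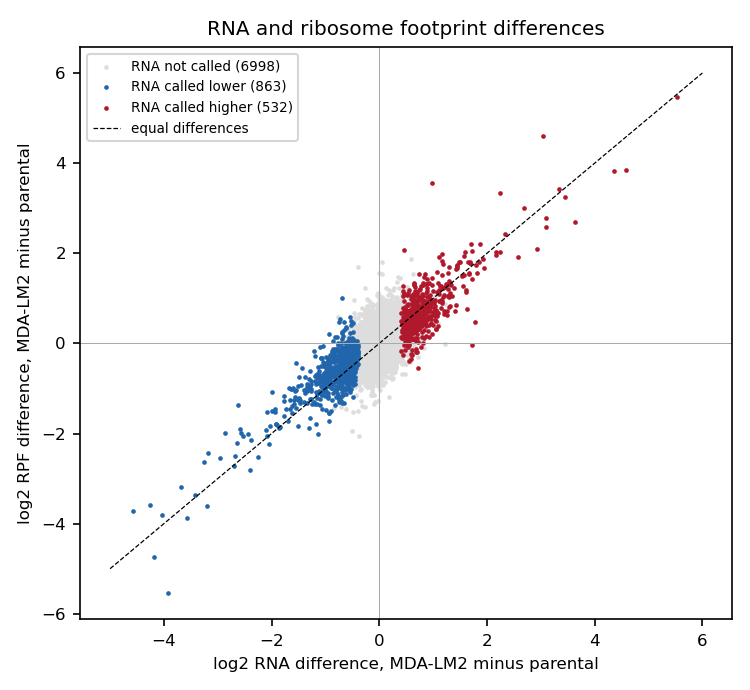
Log2 difference in RNA (x axis) and in RPF (y axis), MDA-LM2 minus parental, for transcripts whose RNA and RPF means both reach 10. Red and blue points are transcripts called higher or lower in RNA, and the dashed line marks equal differences. Of 532 red points 514 lie above 0 on the RPF axis, and of 863 blue points 823 lie below it.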

How the data were processed

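RNA and ribosome-protected fragments (RPF) were measured from the same lysates. Per the methods and the submitters' processing notes, the authors trimmed adapters (cutadapt 2.3) and collapsed reads by molecular identifier (UMI-tools). The methods describe that collapsing for RPF reads and not for the RNA libraries. Reads were aligned (Bowtie2 2.3.5, SAMtools, hg38) to 1 mRNA per gene and counted, and counts were scaled by the median-of-ratios method. The deposited values are this normalised signal per transcript. Values were whole multiples of a step per library within 0.01, which gave the read totals. Transcripts averaging 10 or more across the RNA libraries were tested with limma 3.58.1 (R 4.3.3, trended moderation, two-sided) on log2 of the value plus 1, with Benjamini-Hochberg adjustment over all 10772, and values after ± are standard errors. The code was tested on simulated data. Identifiers were matched to GENCODE 44. Members and lists were chosen with earlier results of these data known. Named by rule were the 12 largest called rises and falls with a mean of at least 50, up to 3 per list and direction, 2 per described family and direction, and the leading genes of the described runs. The largest rises and falls also had to have both replicates of 1 line above both of the other. Further genes were chosen after their values were seen. For a symbol on several transcripts, lists used the one with the higher mean. Alternatives covered scaling, filter, added value, replicate block, moderation, library weights, thresholds and each library left out. The authors' comparison columns and the sgRNA lines were not used here. Some genes of the lists are counted but not reported here by name.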

Additional observations from a re-analysis of the deposited data

How the results depend on the processing

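The 1813 calls (725 higher, 1088 lower) stayed within 1.5 times when 0.5 or 5 was added before the logarithm, without a filter or with a mean of at least 50, with TMM factors, quantile normalisation, robust or untrended moderation and library weights, and in the fits by limma voom on whole reads and with GC and length trends removed, both chosen after seeing the data. They ranged from 1351 without a moderation trend to 2126 with library weights. Equal totals gave 1397 higher and 671 lower, so 67.6% of its calls were rises against 40.0%, and the median of all transcripts became 0.15. An adjusted p under 0.01 left 683 calls (266 higher, 417 lower), and a change of at least 1 on the log2 scale left 459 (204 and 255). Leaving out 1 library gave 723 to 5040 calls, 320 to 2041 higher and 403 to 2999 lower, and the lone library was then assumed to vary like the other pair. Without MDA-LM2 replicate 2, PCBP2 had a change of -0.28, and without MDA-LM2 replicate 1 of 0.47, in place of 0.10 (adjusted p = 0.79 by limma with all 4 libraries), and the cause was not tested. The planned quasi-likelihood and Wald count tests were not run, and limma voom on the recovered whole reads was run in their place. With the replicate number as a block, 2541 transcripts were called (1013 higher, 1528 lower), including the 1813. The lines share only a number: across transcripts, deviations from the group means correlated with 0.17 between parental and MDA-LM2 replicate 1. With 2 libraries a line, the deviations of replicate 2 mirror those of replicate 1. Of the 255 genes named by rule, 252 kept their call with TMM factors, 231 with equal totals, 231 with quantile normalisation and 251 with voom, but 176 and 178 without parental replicate 1 and 2. With 2 libraries a line, spread per transcript rests largely on the trend over all transcripts, and low values were less precise (median SE 0.28 for means of 10 to 50 against 0.15 for all).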
